A study of Rattus norvegicus with 18 samples.

Results

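The proteasome subunits are the 34 genes Psma1 to Psma7, Psmb1 to Psmb7, Psmc1 to Psmc6 and Psmd1 to Psmd14. They were chosen by symbol, and 33 of them were among the 9149 genes tested. For each gene the brightest probe set (a group of array probes for one transcript) that the platform annotation assigns to that symbol alone was taken, and it was kept where its log2 level exceeded 4 in at least 3 of the 18 arrays. No member was lost to that filter: over the 33 genes and 18 arrays the lowest log2 level was 8.23, in Psmd9, and the highest was 14.5. Psmb6 could not be tested by this rule because its only probe set also carries the symbol Psmb6l1, and its values are given separately.

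The cells were NRK-52E, an established epithelial line from the kidney proximal tubule of the Osborne-Mendel rat, grown to confluence. They were exposed to 1.1 µM of the fungicide chlorothalonil, dissolved in 0.1% DMSO, or to the solvent at 0.1% without it (called DMSO here), and RNA was taken after 6, 24 or 72 h. Each of the 6 groups (chlorothalonil and DMSO at each time) held 3 Affymetrix arrays that the labels call biological replicates. The labels give the dose as the one of slight inhibition at 72 h, so the comparison asks how transcript levels respond over time to a mildly inhibitory dose. All groups come from a single cell line.

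The proteasome is the protease that degrades proteins tagged with ubiquitin. Its core particle is a barrel of alpha rings (Psma genes), which gate the entrance, and beta rings (Psmb genes), of which Psmb5, Psmb6 and Psmb7 carry the proteolytic sites. A cap on the barrel consists of a base, with a ring of ATPases (Psmc genes) that unfold substrates, and a lid, which removes the ubiquitin chain. In mammalian cells the genes of these subunits are known to be raised together by the transcription factor Nfe2l1 when proteasome capacity is limiting, and several also by Nfe2l2, the factor of the antioxidant response. Both act through antioxidant response elements.

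Promoters are shown for the 3 members with the highest log2 change after 24 h of chlorothalonil, Psmd9, Psmd13 and Psmd3, and for the catalytic subunit Psmb5, because the members moved together. Each sequence runs from 250 bases before to 50 bases after the gene start in RefSeq's annotation of assembly GRCr8, written 5′ to 3′ on the gene's strand. Capitals mark the letters TGANNNNGC (a loose antioxidant response element, which includes every TGACNNNGC) or CCAAT (the CCAAT box), read on either strand.
Psmd9: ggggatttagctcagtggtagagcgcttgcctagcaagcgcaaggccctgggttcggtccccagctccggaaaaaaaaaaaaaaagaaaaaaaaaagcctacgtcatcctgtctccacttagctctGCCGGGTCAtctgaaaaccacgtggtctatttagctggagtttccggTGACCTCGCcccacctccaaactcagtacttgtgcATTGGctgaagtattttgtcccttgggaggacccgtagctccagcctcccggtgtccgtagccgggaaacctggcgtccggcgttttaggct
Psmd13: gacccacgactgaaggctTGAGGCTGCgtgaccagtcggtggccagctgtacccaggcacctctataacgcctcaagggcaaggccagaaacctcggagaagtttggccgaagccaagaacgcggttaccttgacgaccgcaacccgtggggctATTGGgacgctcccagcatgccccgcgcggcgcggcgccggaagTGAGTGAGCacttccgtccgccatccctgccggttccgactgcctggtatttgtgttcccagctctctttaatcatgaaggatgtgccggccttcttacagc
Psmd3: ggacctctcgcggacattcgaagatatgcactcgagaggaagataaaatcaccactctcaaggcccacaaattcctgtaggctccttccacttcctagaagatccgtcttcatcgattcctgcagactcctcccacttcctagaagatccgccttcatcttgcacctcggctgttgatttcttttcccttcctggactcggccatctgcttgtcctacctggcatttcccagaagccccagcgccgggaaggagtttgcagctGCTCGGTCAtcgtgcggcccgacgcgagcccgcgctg
Psmb5: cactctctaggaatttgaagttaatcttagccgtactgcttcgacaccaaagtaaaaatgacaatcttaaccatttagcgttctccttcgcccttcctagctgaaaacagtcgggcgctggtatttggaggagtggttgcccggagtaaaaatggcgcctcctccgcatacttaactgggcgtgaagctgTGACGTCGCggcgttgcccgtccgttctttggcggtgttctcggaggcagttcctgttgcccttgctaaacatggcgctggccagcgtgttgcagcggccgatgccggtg
The windows lie at chr12:39018215-39018514 on the minus strand (Psmd9), chr1:205393998-205394297 on the plus strand (Psmd13), chr10:84139688-84139987 on the plus strand (Psmd3) and chr15:32047330-32047629 on the minus strand (Psmb5). The tighter form TGACNNNGC stood in the windows of Psmd9, as TGACCTCGC and, on the other strand, as GCCGGGTCA, of Psmd3 as GCTCGGTCA on the other strand, and of Psmb5 as TGACGTCGC. Psmd13 held only the loose form, TGAGGCTGC and TGAGTGAGC. RefSeq promoters were matched for 30 of the 34 members. Of these, 7 (23.3%) held TGACNNNGC, against 12.1% of all 33469 promoters of that length. They were Psmb2, Psmb5, Psmb6, Psmd1, Psmd3, Psmd9 and Psma3, whose own probe set fell at 24 h. Psmd8, Psmd4, Psmb3, Psmc4 and Psmb7, all at least 2-fold higher at 24 h, did not hold it, and Psmd4 and Psmc4 held neither form. The loose form TGANNNNGC stood in 18 (60%) against 40.5%, CCAAT in 16 (53.3%) against 37.5%, and GAANNTTC, a heat shock element, in 2 (6.67%) against 8.59%. These matches are letters in a window and were not tested as binding sites.

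Before the results, some properties of the arrays bear on them. All changes are on the deposited log2 scale, which is relative to the other transcripts on the same array. Between replicate arrays the correlation over all genes was 0.992 to 0.998. The poly-A control transcripts, which are spiked into RNA samples, were brighter in treated arrays at each time, for example at mean log2 levels of 9.70 to 10.23 in chlorothalonil against 8.26 to 9.44 in DMSO at 24 h. Scaled to those controls, the median log2 change of all genes shifted to −0.56, −0.89 and −0.53 at 6, 24 and 72 h, against −0.0097, 0.057 and 0.074 as deposited. The cause of the shift was not tested. Of 12 proximal tubule markers 3 passed the filter (Aqp1, Ggt1 and Mme), while Lrp2 and Cubn, the endocytic receptors of that segment, did not. The log2 of that list's summed level was 8.74 to 9.05 in chlorothalonil against 7.99 to 8.14 in DMSO at 24 h, and 6.83 to 7.11 in chlorothalonil against 7.83 to 8.06 in DMSO at 72 h. Its genes moved apart at 24 h: Ggt1 averaged 8.58 in chlorothalonil and 6.70 in DMSO, whereas Mme averaged 4.95 in chlorothalonil and 6.80 in DMSO. At 72 h Ggt1 averaged 5.64 in chlorothalonil and 3.42 in DMSO. Aqp1 averaged 2.60 in chlorothalonil and 7.04 in DMSO at 72 h, and Mme 4.84 and 5.95. Of 8 epithelial markers Krt8 and Tjp1 passed, and Cdh1 and Epcam did not. Of 4 measured leukocyte markers 0 passed, as did 0 of 5 distal nephron markers. Synpo passed of 3 measured podocyte markers, and Tek of 4 measured endothelial markers. Of 7 fibroblast markers 3 passed (Col1a1, Col1a2 and Col3a1, collagen genes), and the log2 of the list's summed level was 9.02 to 9.43 in chlorothalonil against 10.57 to 10.72 in DMSO at 24 h, and 11.13 to 11.6 in chlorothalonil against 14.45 to 14.61 in DMSO at 72 h. In these bulk samples fewer cells of a type and less RNA per cell cannot be told apart, and the part of either in the results was not tested. The log2 difference between the 3′ and 5′ actin probe sets, a sign of RNA quality, was 0.90 to 0.95 in chlorothalonil and 0.93 to 1.12 in DMSO at 6 h. It was 1.03 to 1.16 in chlorothalonil and 1.23 to 1.32 in DMSO at 24 h, and 1.66 to 1.81 in chlorothalonil and 1.51 to 2.02 in DMSO at 72 h. It was thus higher at each later time in both arms and lay apart between arms at 24 h. The same difference for the Gapdh probe sets overlapped between arms at 24 h (−0.263 to −0.199 in chlorothalonil, −0.232 to −0.227 in DMSO). The part of RNA quality in the results was not tested.

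After 24 h, nearly every tested proteasome subunit gene had a higher transcript level in chlorothalonil than in DMSO on the deposited scale. Of the 33 members 32 rose and 1, Psma3, fell (limma, adjusted p under 0.05 over all 9149 genes), whereas 39.1% of all genes rose and 31.1% fell. The median log2 change of the members was 0.80, with a range of −0.50 to 1.81, against a median of 0.057 over all genes. Relative to the median of all genes the members' median was 0.75 on either scale, because the poly-A scaling shifts all genes of an array alike. On the poly-A scale their own median turned to −0.15. That sign rests on single arrays: the poly-A scaled median was 0.25 without DMSO replicate 1 and 0.026 without chlorothalonil replicate 1 of 24 h. The treated arrays all lay above all DMSO arrays in 32 members, which held for 40.4% of all genes, and all below in Psma3, which held for 32.5%. The change was at least 2-fold in 9 members: Psmd9, Psmd13, Psmd3, Psmd8, Psmd4, Psmb3, Psmc4, Psmb7 and Psmd12. The share of all genes reaching 2-fold is not given.

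**Figure D1:**
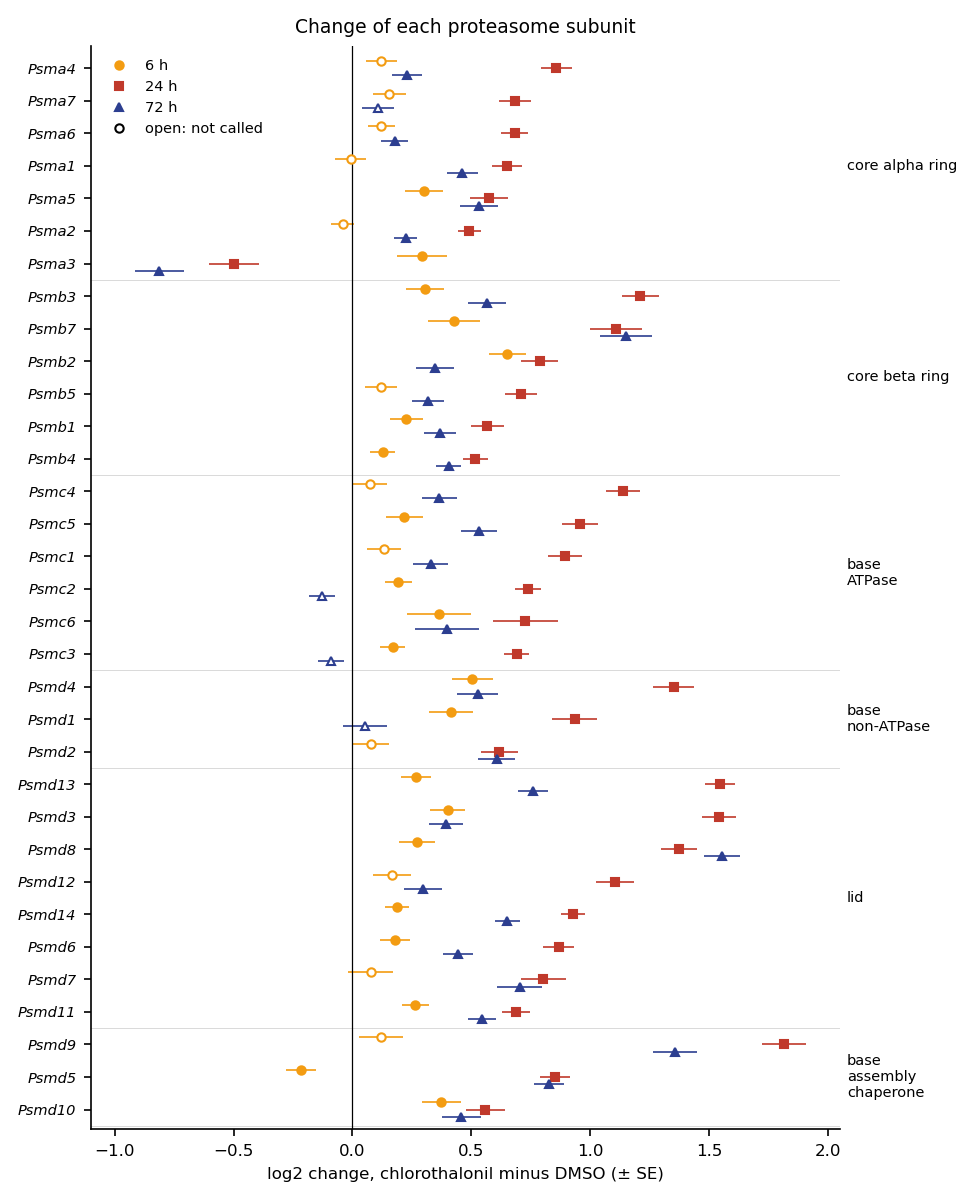
The plot gives the log2 change of each of the 33 members, chlorothalonil minus DMSO, at 6 h (circles), 24 h (squares) and 72 h (triangles), with bars of 1 SE and open symbols for changes not called. The squares lie right of 0 for every member but Psma3, with a median of 0.80 on the deposited scale, which turns to −0.15 when arrays are scaled to the poly-A controls and to 0.25 on that scale without DMSO replicate 1 of 24 h.

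After 6 h the same comparison gave 20 members higher and 1, the base assembly chaperone Psmd5, lower, against 27.8% of all genes higher and 31.8% lower. With quantile normalization or median centring 15 were higher and 1 lower, and the shares of all genes are not given for these. The changes were small: the members' median was 0.19 (−0.36 on the poly-A scale), and 0 members reached 2-fold. Relative to the median of all genes the members' median was 0.20 on either scale. The treated arrays did not overlap with DMSO in 25 members, 24 of them above (32.1% of all genes) and 1 below (34.7%). Psmb2, a structural beta subunit, had the highest log2 change at 6 h. Its log2 levels were 13.25, 13.24 and 13.29 in chlorothalonil against 12.65, 12.56 and 12.61 in DMSO, a 1.57-fold difference (log2 0.65, SE 0.079, adjusted p = 4.74e-06).

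After 72 h, 28 members were higher and again Psma3 alone was lower, against 37.2% of all genes higher and 27% lower. The median log2 change was 0.41 (−0.20 on the poly-A scale), or 0.33 relative to the median of all genes on either scale. Psma7 (log2 0.11, adjusted p = 0.178), Psmd1 (0.05, adjusted p = 0.652), Psmc3 (−0.09, adjusted p = 0.154) and Psmc2 (−0.13, adjusted p = 0.0563) did not pass the test. With quantile normalization 1 of the ATPases was called lower at 72 h, and the result for Psmc2 differed in 6 of the alternative settings. The treated arrays lay above all DMSO arrays in 28 members (40.1% of all genes) and below in 3 (30.5%), which were Psma3 and the ATPases Psmc2 and Psmc3. Of the 33 members, 16 were called higher at all 3 times, which held for 10.1% of all genes.

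The treatment effect itself differed between times by its own test. From 6 to 24 h it rose in 29 members and fell in 1, Psma3, against 39.6% and 23.4% of all genes, and the members' median difference was 0.66. Psmb2, Psmc6 and Psmd10 were not called. From 24 to 72 h the effect fell in 20 members and rose in 0, against 29.8% and 27.9% of all genes, with a median difference of −0.42. On the poly-A scale, where shares of all genes are not given, the effect rose in 1 member and fell in 1 from 6 to 24 h. The median difference was 0.26 there. From 24 to 72 h 0 members were called there, with a median of −0.074. Psmd3 lost most of its effect in this interval, with a log2 difference of −1.15 (SE 0.103, adjusted p = 2.96e-07). Psmd8 (0.18, adjusted p = 0.164) and Psmb7 (0.04, adjusted p = 0.841) were the only members whose effect was numerically larger at 72 h than at 24 h.

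The levels behind these differences moved in both arms. In DMSO 26 members fell and 2 rose at 24 h relative to 6 h (40% and 32.9% of all genes), with a median log2 change of −0.38. At 72 h relative to 24 h in DMSO 28 fell and 1 rose (24.3% and 36.3%), with a median of −0.43. In chlorothalonil 26 members rose and 1 fell at 24 h relative to 6 h (34.6% and 24.9%), with a median of 0.28. At 72 h relative to 24 h in chlorothalonil 31 fell and 1 rose (33.3% and 39.5%), with a median of −0.80. On the poly-A scale far fewer were called. The share of all genes called on that scale is not given, so the drop cannot be called particular to the members. There 1 member fell in DMSO at 24 h relative to 6 h (median −0.21) and 9 fell at 72 h relative to 24 h (median −0.62). In chlorothalonil 0 were called at 24 h relative to 6 h (median 0.044) and 14 fell at 72 h relative to 24 h (median −0.64). The comparisons within an arm share arrays with those between arms and are not independent of them. The labels report several studies at each time and do not say whether a study spans times. If studies differ between times, the comparisons within an arm also hold differences between studies, which their p-values do not measure.

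Group by group on the deposited scale, the highest of the 6 group means was that of chlorothalonil at 24 h in 31 of 33 members. The exceptions were Psma3, highest in DMSO at 72 h, and Psmd10, highest in chlorothalonil at 72 h. The lowest group mean was that of DMSO at 72 h in 29 members. In 31 members all 3 arrays of chlorothalonil at 24 h also lay above all 3 arrays of DMSO at 6 h, which held for 35.5% of all genes. Those DMSO arrays are the earliest samples with the solvent alone. The exceptions here were Psma3 and Psmd7. At 72 h the treated mean was below the mean of DMSO at 6 h in 24 members. For these counts of group means the shares of all genes are not given, so they are not shown to be particular to the members.

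To compare subcomplexes, each gene's log2 levels were taken relative to its own mean over the 18 arrays and averaged. Over all 33 members this relative level was 0.32 ± 0.028 in chlorothalonil and 0.11 ± 0.044 in DMSO at 6 h (mean ± SD, n = 3 arrays each). At 24 h it was 0.62 ± 0.040 in chlorothalonil and −0.24 ± 0.042 in DMSO. At 72 h it was −0.18 ± 0.053 in chlorothalonil and −0.63 ± 0.020 in DMSO. The arms did not overlap at any time on this deposited scale, and the gap was widest at 24 h.

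**Figure D2:**
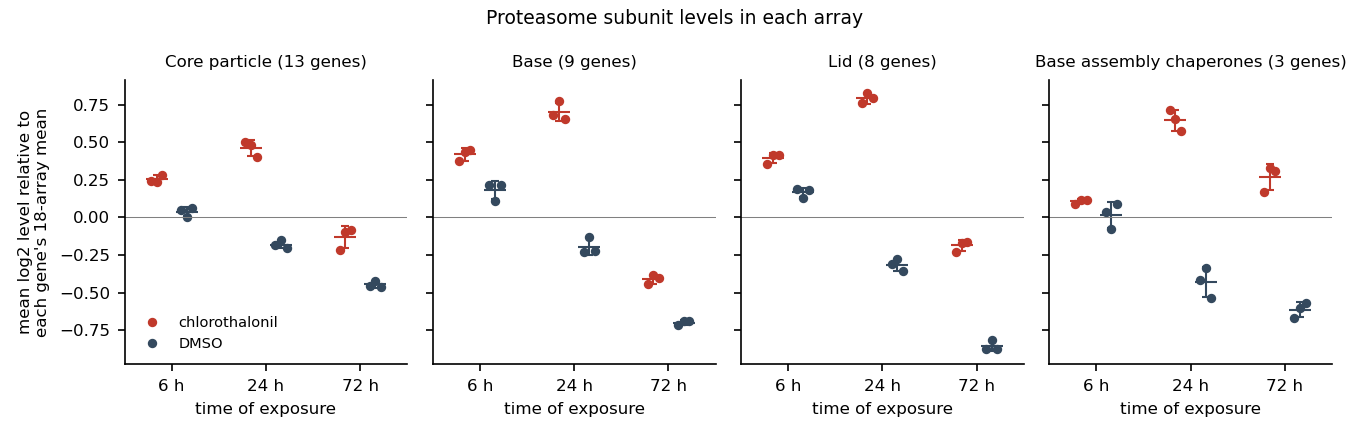
The plot gives, for each array, the mean log2 level of the core, base, lid and base assembly chaperone genes relative to each gene's mean over 18 arrays, with group means and SD (n = 3), on the deposited scale. Chlorothalonil arrays (left of each pair) peak at 24 h in all 4 panels, while DMSO arrays are lower at each later time. On the poly-A scale the members' median change turns to −0.36, −0.15 and −0.20 at 6, 24 and 72 h, and the 24 h value to 0.25 there without DMSO replicate 1.

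The core particle had the lowest median log2 change of the subcomplexes at 24 h, 0.68 over 13 genes, against 0.90 for the 9 base genes, 1.02 for the 8 lid genes and 0.85 for the 3 base assembly chaperones. These medians are descriptions, and the difference between subcomplexes was not tested. On the poly-A scale they were −0.27, −0.054, 0.068 and −0.098. All of the base, lid and chaperone genes and 12 of 13 core genes were called higher. At 6 h the medians were 0.16, 0.19, 0.23 and 0.12 in the same order, with 7, 6, 6 and 1 genes called higher (27.8% of all genes). With quantile normalization they were 0.078, 0.14, 0.14 and 0.19, with 6, 4, 4 and 1 called higher, so their order at 6 h depends on the scaling. At 72 h they were 0.35, 0.37, 0.60 and 0.83, with 11, 6, 8 and 3 called higher (37.2% of all genes). Every lid gene was thus still called at 72 h, while 3 of 9 base genes were not, although other probe sets of the lid genes Psmd7 and Psmd11 gave negative changes at that time. Across the 33 members the change at 24 h had a Pearson r of −0.24 with the mean level. The genes share arrays and are not independent. This r includes Psma3, at a mean level of 9.76 and a change of −0.50, whose direction is uncertain, and was not computed without it. Psmb4, at a mean level of 14.16, changed by 0.52 and Psmc5, at 10.97, by 0.96, but Psmd10, at 8.72, by 0.56. The part of signal level in the differences between subcomplexes was not tested.

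The alpha ring, which forms the gate of the core, had median log2 changes of 0.12, 0.65 and 0.22 at 6, 24 and 72 h over 7 genes. Psma4 had the highest change at 24 h among them. It had log2 levels of 12.75, 12.73 and 12.61 in chlorothalonil against 11.79, 11.93 and 11.79 in DMSO, a 1.81-fold difference (log2 0.86, SE 0.064, adjusted p = 1.47e-08). Psma2 was at the low end of the alpha genes that rose. It had log2 levels of 14.27, 14.35 and 14.34 in chlorothalonil against 13.85, 13.83 and 13.81 in DMSO at 24 h, a 1.41-fold difference (log2 0.49, SE 0.048, adjusted p = 2.85e-07). Its arms overlapped at 6 h.

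Psma3 went against the other members, and the array holds conflicting readings of it. The probe set with Psma3 as its only symbol had log2 levels of 9.83, 9.71 and 9.82 in chlorothalonil against 9.33, 9.76 and 9.39 in DMSO at 6 h. At 24 h they were 9.20, 9.20 and 9.45 in chlorothalonil against 9.62, 9.85 and 9.88 in DMSO, and at 72 h 9.65, 9.76 and 9.67 in chlorothalonil against 10.51, 10.51 and 10.50 in DMSO. Treated arrays were thus below DMSO at the later times, with log2 changes of 0.29 (adjusted p = 0.0258), −0.50 (adjusted p = 0.000565) and −0.81 (adjusted p = 7.52e-06) at 6, 24 and 72 h (SE 0.105). Across arrays its correlation with any other member was at most −0.19. A second probe set, shared with the near-identical copy Psma3l, behaved like the other members. It had log2 levels of 14.27, 14.35 and 14.26 in chlorothalonil against 13.74, 13.78 and 13.75 in DMSO at 24 h. Its log2 changes were −0.06, 0.54 and 0.29 at the 3 times (SE 0.040), so the direction for Psma3 at each time depends on the probe set and is uncertain.

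The beta ring had median log2 changes of 0.27, 0.75 and 0.39 over its 6 tested genes, all of which rose at 24 and 72 h. Psmb5, the chymotrypsin-like subunit, had log2 levels of 13.30, 13.18 and 13.18 in chlorothalonil against 13.18, 12.98 and 13.14 in DMSO at 6 h. At 24 h they were 13.48, 13.45 and 13.33 in chlorothalonil against 12.76, 12.72 and 12.65 in DMSO, and at 72 h 12.70, 12.83 and 12.85 in chlorothalonil against 12.45, 12.50 and 12.47 in DMSO. The arms were separate at 24 and 72 h and close at 6 h. The fold was 1.64 at 24 h (log2 0.71, SE 0.067, adjusted p = 1.92e-07) and 1.25 at 72 h (0.32, adjusted p = 0.000744), and the 6 h change of 0.12 did not pass (adjusted p = 0.133).

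Psmb7, the trypsin-like subunit, kept its difference at 72 h. Its log2 levels were 12.90, 12.74 and 12.58 in chlorothalonil against 11.61, 11.62 and 11.68 in DMSO at 24 h, and 11.74, 11.84 and 11.85 in chlorothalonil against 10.82, 10.64 and 10.53 in DMSO at 72 h. That made it 2.16-fold higher at 24 h (log2 1.11, SE 0.109, adjusted p = 2.7e-07) and 2.22-fold higher at 72 h (1.15, adjusted p = 2.96e-07). Both arms were lower at 72 h than at 24 h, by 0.93 in chlorothalonil and 0.97 in DMSO. Psmb6, the caspase-like subunit, is read only by the set shared with Psmb6l1. That set had log2 levels of 13.08, 12.88 and 12.67 in chlorothalonil against 11.49, 11.55 and 11.55 in DMSO at 24 h. Its log2 changes were 0.17, 1.34 and 0.73 at 6, 24 and 72 h (SE 0.099), with no overlap between arms at any time, and which of the genes it reports cannot be told.

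Among the structural beta subunits, Psmb3 rose most at 24 h and Psmb4 least. Psmb3 had log2 levels of 13.79, 13.71 and 13.49 in chlorothalonil against 12.40, 12.55 and 12.41 in DMSO, a 2.32-fold difference (log2 1.21, SE 0.080, adjusted p = 3.51e-09). Psmb4 had 14.54, 14.55 and 14.47 in chlorothalonil against 14.00, 14.07 and 13.93 in DMSO, a 1.43-fold difference (log2 0.52, SE 0.052, adjusted p = 3.62e-07). Psmb4 was close to the threshold at 6 h (log2 0.13, adjusted p = 0.0463).

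**Figure D3:**
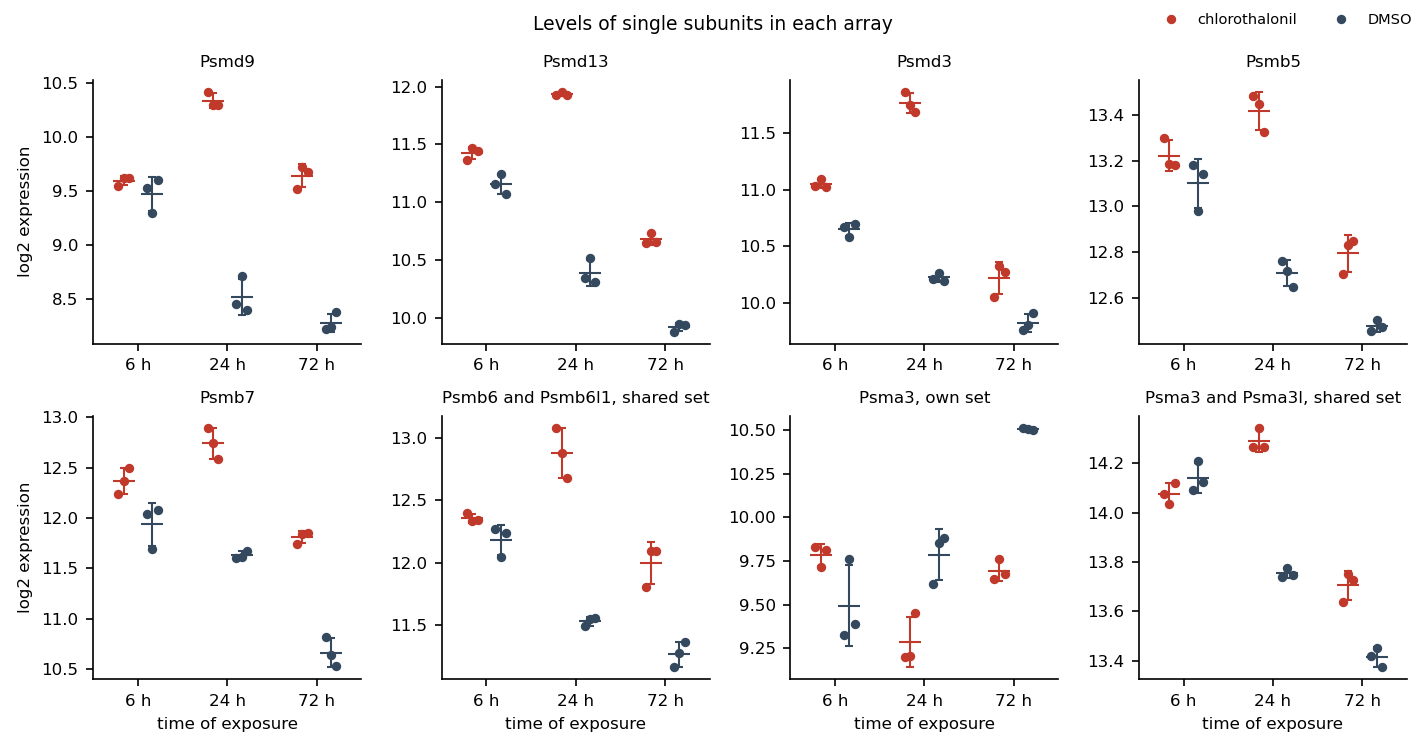
The plot gives the log2 expression of single subunits in each array (points) with group mean and SD (n = 3), chlorothalonil left of DMSO at each time, on separate axes that do not start at 0. Psmd9, Psmd13, Psmd3, Psmb5 and Psmb7 separate widely at 24 h, whereas the set of Psma3 alone runs opposite to the set shared with Psma3l.

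In the base, the ATPases Psmc1 to Psmc6 all rose at 24 h, with a median log2 change of 0.82 (0.18 at 6 h and 0.35 at 72 h). Psmc4 led them. Its log2 levels were 12.82, 12.91 and 12.72 in chlorothalonil against 11.69, 11.74 and 11.60 in DMSO at 24 h, a 2.20-fold difference (log2 1.14, SE 0.072, adjusted p = 2.36e-09). At 6 h its arms overlapped (0.07, adjusted p = 0.4). Psmc2 and Psmc3 were the ATPases that rose at 24 h (0.74 and 0.69) and were not called at 72 h. For Psmc2 the treatment effect fell by 0.87 from 24 to 72 h (SE 0.079, adjusted p = 3.66e-07), and for Psmc3 by 0.78 (SE 0.075, adjusted p = 6.38e-07).

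Psmd4, a ubiquitin receptor of the base, had a higher fold at 24 h than the scaffold proteins Psmd1 and Psmd2, a difference between genes that was not tested. Its log2 levels at 24 h were 11.92, 12.01 and 11.76 in chlorothalonil against 10.53, 10.58 and 10.52 in DMSO, a 2.55-fold difference (log2 1.35, SE 0.086, adjusted p = 2.49e-09). Psmd1 was 1.91-fold and Psmd2 1.54-fold higher at 24 h. They parted at 72 h, when Psmd2 was still 1.52-fold higher and Psmd1 was at 1.04-fold (adjusted p = 0.652). Adrm1, another ubiquitin receptor of the proteasome, which lies outside the member names, was 3.04-fold higher at 24 h (log2 1.60, SE 0.149, adjusted p = 1.54e-07). Sem1, a small lid protein, was not called at any time.

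The lid held 4 of the 9 members that were at least 2-fold higher at 24 h. Psmd13 had log2 levels of 11.36, 11.47 and 11.45 in chlorothalonil against 11.16, 11.25 and 11.08 in DMSO at 6 h. At 24 h they were 11.93, 11.95 and 11.93 in chlorothalonil against 10.34, 10.52 and 10.31 in DMSO, and at 72 h 10.65, 10.74 and 10.66 in chlorothalonil against 9.88, 9.94 and 9.94 in DMSO. No DMSO array reached a treated array of its time, and the fold was 1.20, 2.92 and 1.69 at the 3 times (log2 1.55 at 24 h, SE 0.063, adjusted p = 2.62e-11). Psmd3 had 11.86, 11.75 and 11.69 in chlorothalonil against 10.21, 10.27 and 10.20 in DMSO at 24 h, a 2.91-fold difference (log2 1.54, SE 0.072, adjusted p = 1.14e-10). It was down to 1.31-fold at 72 h.

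Psmd8 showed the largest difference of all members at 72 h. Its log2 levels were 13.31, 13.35 and 13.15 in chlorothalonil against 11.93, 11.94 and 11.81 in DMSO at 24 h, and 12.67, 12.78 and 12.92 in chlorothalonil against 11.27, 11.29 and 11.15 in DMSO at 72 h. The fold was 2.59 at 24 h (log2 1.37, SE 0.076, adjusted p = 5.88e-10) and 2.94 at 72 h (log2 1.56, adjusted p = 3.3e-10). Psmd14, the deubiquitinase of the lid, was 1.90-fold and Psmd7, its partner, 1.75-fold higher at 24 h. Psmd12 was 2.15-fold higher at 24 h. Psmd6 was 1.82-fold and Psmd11 1.61-fold higher.

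Psmd5, Psmd9 and Psmd10 assist the building of the base and are not part of the finished particle. Psmd9 had the largest change at 24 h of all members. Its log2 levels at 6 h were 9.54, 9.62 and 9.62 in chlorothalonil against 9.53, 9.29 and 9.60 in DMSO. At 24 h they were 10.42, 10.29 and 10.29 in chlorothalonil against 8.45, 8.71 and 8.40 in DMSO, and at 72 h 9.52, 9.72 and 9.68 in chlorothalonil against 8.23, 8.24 and 8.38 in DMSO. The arms overlapped at 6 h and were far apart afterwards, 3.52-fold at 24 h (log2 1.81, SE 0.093, adjusted p = 2.83e-10) and 2.56-fold at 72 h (log2 1.36, adjusted p = 1.03e-08). Psmd5 was lower at 6 h, with log2 levels of 11.67, 11.63 and 11.78 in chlorothalonil against 11.96, 11.83 and 11.94 in DMSO (log2 change −0.22, SE 0.063, adjusted p = 0.00797). It was 1.80-fold higher at 24 h and 1.77-fold higher at 72 h. Psmd10, also known as gankyrin, had similar folds of 1.30, 1.47 and 1.37 at the 3 times.

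The members varied together over the arrays. The median Pearson r over 528 pairs of members was 0.88 (range −0.93 to 0.99), as a description of 18 arrays that share the treatment and time effects. Of the members, 4 had further probe sets that passed the filter, 6 sets in all. At 24 h all of these sets had positive log2 changes, between 0.42 and 1.77. At 72 h they disagreed for Psmd7 (−0.25, SE 0.054, against 0.70 for its brightest set), Psmc6 (−0.19, SE 0.170, and −0.09, SE 0.108, against 0.40) and Psmd11 (−0.08, SE 0.077, against 0.54). For these genes the call at 72 h rests on the brightest set.

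Genes that work with these subunits did not all rise with them. Psmb8, Psmb9 and Psmb10 replace the catalytic subunits in the immunoproteasome, a form induced by interferon. Psmb9 had log2 levels of 8.47, 8.49 and 8.89 in chlorothalonil against 9.93, 9.93 and 9.77 in DMSO at 24 h, and 10.56, 10.64 and 10.74 in chlorothalonil against 10.04, 10.12 and 10.22 in DMSO at 72 h. It was thus lower at 24 h (log2 change −1.26, SE 0.104, adjusted p = 4.07e-08) and higher at 72 h (0.52, adjusted p = 0.000435), a value turning to −0.079 on the poly-A scale. Psmb8 stayed at or below log2 4 in every array at 6 and 24 h. At 72 h it had log2 levels of 7.51, 7.66 and 7.52 in chlorothalonil against 6.15, 6.08 and 6.43 in DMSO, 2.54-fold higher (adjusted p = 0.000195). Psmb10 was 1.46-fold higher at 6 h and 1.65-fold higher at 24 h, and its change of −0.25 at 72 h did not pass (adjusted p = 0.144).

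Psme1 and Psme2, the interferon-inducible cap of the core, differed in direction between times. Psme1 had log2 levels of 11.95, 11.94 and 11.94 in chlorothalonil against 11.49, 11.50 and 11.54 in DMSO at 6 h, and 11.80, 11.79 and 11.89 in chlorothalonil against 12.32, 12.34 and 12.39 in DMSO at 24 h. Its log2 change was 0.44 at 6 h (adjusted p = 3.98e-06), −0.53 at 24 h (adjusted p = 2.91e-07) and −0.30 at 72 h (adjusted p = 0.000138), and the change of effect from 6 to 24 h was itself called (−0.96, adjusted p = 6.94e-08). On the poly-A scale its 6 h value turned to −0.11. Psme2 changed by 0.31 at 6 h and −0.33 at 24 h, both called, and by −0.02 at 72 h (adjusted p = 0.77). Psme4, a further activator, rose by 1.09 at 24 h in its brightest set. Of its other sets, one gave 1.23 (SE 0.101) and the other −1.03 (SE 0.207). Psmf1, an inhibitor of the core, rose by 0.31, 0.85 and 0.41 at the 3 times.

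The chaperones of core assembly mostly rose at 24 h, although their median log2 change of 0.40 turned to −0.55 on the poly-A scale. Pomp, which is needed for the maturation of the beta ring, had log2 levels of 13.27, 13.33 and 13.30 in chlorothalonil against 12.53, 12.50 and 12.41 in DMSO at 24 h, 1.77-fold higher (log2 0.82, SE 0.054, adjusted p = 3.98e-09). At 24 h 4 of the 5 core chaperones rose (39.1% of all genes), with Psmg2 at 0.97, Psmg3 at 0.40 and Psmg1 at 0.37, and Psmg4 did not (−0.0041, adjusted p = 0.978). At 6 h 3 rose (27.8% of all genes; 2 with quantile normalization or median centring) and at 72 h 3 rose (37.2%).

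At 6 and 24 h all 4 listed regulators of proteasome genes fell in their brightest sets, and at 72 h 3 fell (31.8%, 31.1% and 27% of all genes fell at the 3 times). All 4 also fell on the poly-A scale at 6 and 24 h. The medians of all genes were already −0.56 and −0.89 there, so this is no separate check. With median centring 3 fell at 24 h, without Nfe2l2, and at 72 h 2 fell and Nfe2l1 rose. Nfe2l1 had log2 levels of 9.24, 9.18 and 9.20 in chlorothalonil against 9.99, 10.13 and 9.91 in DMSO at 6 h, and 10.46, 10.60 and 10.46 in chlorothalonil against 11.45, 11.38 and 11.22 in DMSO at 24 h. Its log2 change was −0.80 at 6 h (SE 0.072, adjusted p = 2.51e-07), −0.84 at 24 h (adjusted p = 6.61e-08) and 0.17 at 72 h (adjusted p = 0.0552). Its other sets gave 0.06 (SE 0.178) and 0.32 (SE 0.081) at 6 h, so its direction there depends on the set. At 24 h both were negative, as low as −1.77 (SE 0.081). Ddi2, the protease that activates the Nfe2l1 protein, changed by −1.08, −0.57 and −0.51 at the 3 times, and Ngly1, which removes its glycans, by −0.58, −0.77 and −0.38. Nfe2l2 changed by −0.28, −0.17 and −0.13, all called. These factors are known to be controlled at the protein level, which the arrays do not measure.

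**Figure D4:**
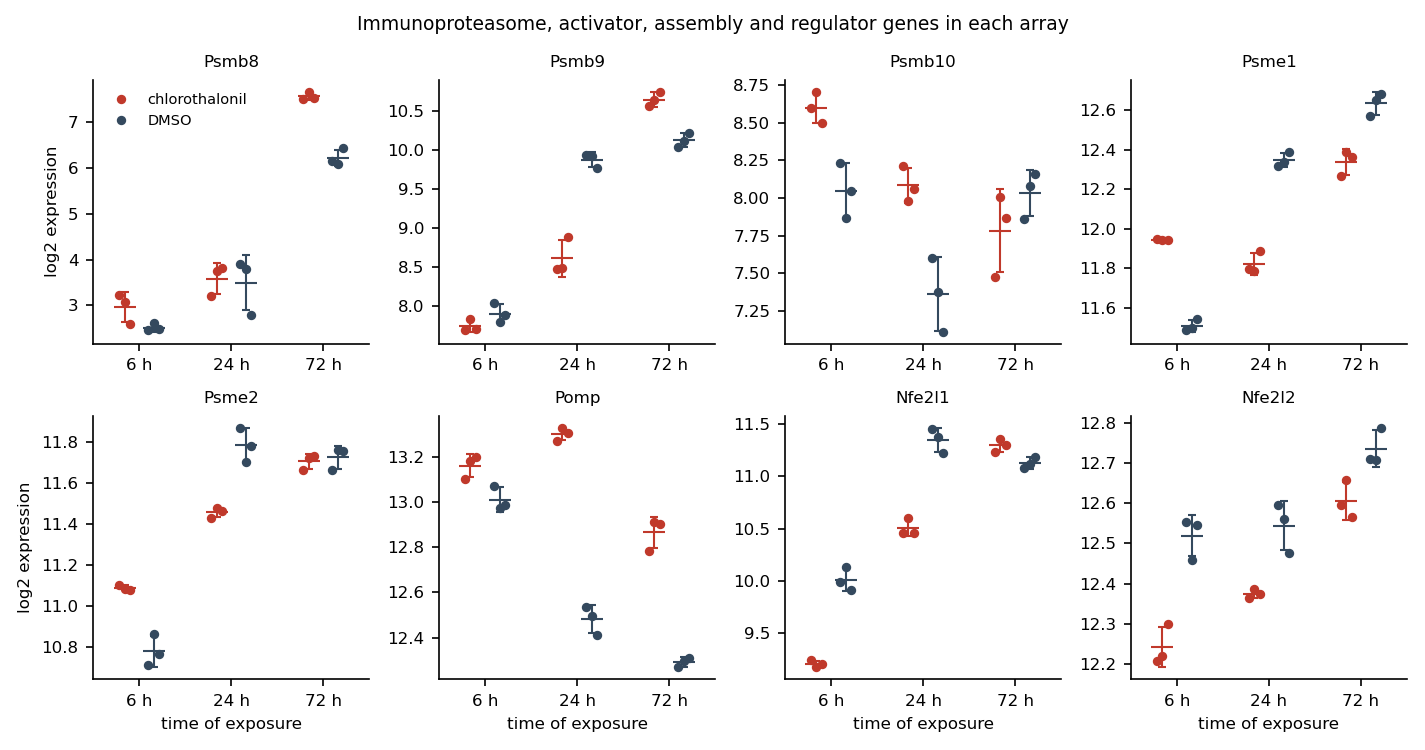
The plot gives the log2 expression of immunoproteasome (Psmb8, Psmb9, Psmb10), activator (Psme1, Psme2), assembly (Pomp) and regulator genes (Nfe2l1, Nfe2l2) in each array, with group mean and SD (n = 3), chlorothalonil left of DMSO at each time, on separate axes that do not start at 0. Psmb9 and Psme1 are lower and Pomp is higher in chlorothalonil at 24 h, and Nfe2l1 is lower at 6 and 24 h in this probe set, while its other sets gave 0.06 and 0.32 at 6 h.

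Genes that deliver substrates were higher at 24 h. All 11 tested ubiquitin receptors and partners of the unfoldase Vcp rose, against 39.1% of all genes, with a median log2 change of 0.87 (−0.079 on the poly-A scale). Zfand2a, a stress-induced proteasome partner, had log2 levels of 13.59, 13.65 and 13.64 in chlorothalonil against 9.36, 9.76 and 9.54 in DMSO at 24 h, a 16.8-fold difference (log2 4.07, adjusted p = 2.32e-12). It was already 3.83 higher on the log2 scale at 6 h, when the members' median change was 0.19, and stayed 3.31 higher at 72 h. Sqstm1, a receptor that links ubiquitin to autophagy, rose by 1.81, 1.72 and 0.46 at the 3 times. Ufd1, a Vcp cofactor, rose by 1.40 at 24 h and was lower at 72 h (−0.51), and the shuttle Ubqln1 rose by 0.51, 1.13 and 0.78. At 6 h 7 of the 11 were higher and 1 lower, against 27.8% and 31.8% of all genes, and at 72 h 7 were higher and 2 lower, against 37.2% and 27%.

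Enzymes bound to the proteasome rose in 5 of 6 cases at 24 h (39.1% of all genes), among them the deubiquitinases Uchl5 (0.90) and Usp14 (0.81), and their median of 0.47 turned to −0.48 on the poly-A scale. Of 8 tested enzymes of ubiquitin activation and transfer 2 rose at 24 h, Ube2n (1.16) and Cdc34 (0.69), and 1 fell, Uba6 (−0.54), neither share being above that of all genes (39.1% rose and 31.1% fell). Their median was −0.026. The ubiquitin genes themselves have no probe set of their own symbol here, so their levels are not reported.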

How the data were processed

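RNA of 18 NRK-52E cultures was hybridised to Affymetrix rat arrays. The authors deposited log2 expression values per probe set, made with GCRMA (background correction, quantile normalization and summary of probes) per the submitters' processing notes. Its version is not stated by those notes. Total RNA was extracted with Trizol, per the labels' protocols. GCRMA makes the arrays' distributions alike, so a change shared by most transcripts is not visible on its scale. The number of arrays limits the precision. The labels report several studies at each time and do not say whether a study spans times. The p-values measure the spread between arrays within the groups. If studies differ between times, comparisons between times within an arm also hold differences between studies, which these p-values do not measure.

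The platform annotation gives 31099 probe sets, 20832 of them with 1 symbol; those above log2 4 in at least 3 arrays were kept (12693), and the brightest per gene gave 9149 genes. limma 3.58.1 in R 4.3.3 fitted 6 group means over all 18 arrays (12 residual and 2.76 prior degrees of freedom), with Benjamini-Hochberg adjustment over all genes for each comparison and a threshold of 0.05. The fit was checked on simulated data. Poly-A scaling subtracted each array's mean over 27 control probe sets. Shares of all genes called are given for the deposited scale only, so counts called with other scalings have none beside them. Any member could be named. Values per array were given for the 5 members with the largest and the 3 with the smallest log2 change at 24 h, the 3 catalytic subunits and the leading member of each subcomplex, and Psmb2 and Psmd5 were added after their values were seen. All passing genes of the immunoproteasome, activator, core assembly and regulator lists were named, and up to 4 of each other list with the smallest p at 24 h. The members and lists were chosen with earlier results of these data known.

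Replicate numbers did not pair the arrays: over 45 same-numbered pairs the correlation of deviations from the group means ran between −0.262 and 0.305. Alternatives were other scalings, filters, probe set rules, array weights, a trended prior, a replicate block and leaving out each array.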

Additional observations from a re-analysis of the deposited data

Results flagged for a closer look

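The treatment effect differed between times by its own test (limma, adjusted over all genes). From 6 to 24 h it rose in 29 members and fell in 1, and from 24 to 72 h it rose in 0 and fell in 20. On the poly-A scale, where shares of all genes are not given, it rose in 1 and fell in 1 from 6 to 24 h. From 24 to 72 h 0 were called there. Members with opposite directions at the 2 times compared were Psma3, whose effect changed by −0.79 from 6 to 24 h, and Psmd5, whose effect changed by 1.07. For Psma3 this holds in its own probe set, whereas the set shared with Psma3l changed by −0.06 at 6 h and 0.54 at 24 h. Among the related genes the effect on Psmb9 rose by 1.78 from 24 to 72 h. Between 6 and 24 h the effect on Psme1 changed by −0.96 and that on Psme2 by −0.64. The effect on Nploc4, a Vcp cofactor, rose by 1.56 between those times (−0.41 at 6 h and 1.14 at 24 h). From 24 to 72 h the effect on Ufd1 changed by −1.91 (1.40 at 24 h and −0.51 at 72 h) and that on Zfand5, an activator of the proteasome, by −0.92 (0.49 and −0.43). Groups of 3 arrays were not searched for outlying samples.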

How the results depend on the processing

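Scaling to the poly-A controls changed most. It left 1, 2 and 4 members called at 6, 24 and 72 h, with median log2 changes of −0.36, −0.15 and −0.20, and 2 and 0 for the change of effect from 6 to 24 h and from 24 to 72 h. In DMSO it left 1 (24 against 6 h) and 9 (72 against 24 h), and in chlorothalonil 0 and 14. The shares of all genes called on that scale are not given, so the lower counts cannot be called particular to the members. The controls vary between replicates: leaving out single arrays on that scale (added after seeing the data) gave medians of −0.43 to −0.24 at 6 h (among them −0.40, −0.35 and −0.33), −0.39 to 0.25 at 24 h (among them −0.29 and −0.097) and −0.25 to −0.044 at 72 h (among them −0.22 and −0.19), and the 24 h median was 0.25 without DMSO replicate 1 and 0.026 without chlorothalonil replicate 1. It put 32, 23 and 25 of the 33 members below 0 at 6, 24 and 72 h. The scaling shifts all genes of an array alike. Values relative to the median of all genes there therefore equal the deposited values less the deposited median of all genes. The members' medians of 0.20, 0.75 and 0.33, against 0.19, 0.80 and 0.41 as deposited, are thus no separate check. With these values and the spread on the poly-A scale, 62 of the 83 calls were lost. At 6 h quantile normalization and median centring each called 15 higher and 1 lower. Quantile normalization gave medians of 0.14 at 6 h and 0.73 at 24 h, and median centring 0.87 at 24 h and 0.45 at 72 h. Leaving out each array gave 17 to 22, 33 and 27 to 29 calls and medians of 0.18 to 0.21, 0.78 to 0.87 and 0.39 to 0.44 at 6, 24 and 72 h, and 29 to 30 and 20 to 21 calls for the changes of effect. Over time it gave 23 to 28 and 26 to 29 calls in DMSO, and 21 to 27 and 32 in chlorothalonil. With the replicate number as a block the calls were 19 higher and 1 lower, 32 and 1, and 28 and 2; the array with its own number was the best match for 5 of 18. Apart from the plain poly-A scale, signs of single members turned for these small changes. Psma1 at 6 h was 0.0024 relative to the median of all genes and 0.030 with array weights. It was 0.027 without chlorothalonil replicate 1 and 0.024 without DMSO replicate 2 (−0.035 to 0.027 over arrays left out). Psmc4 at 6 h was −0.024 with quantile normalization. Psmd7 at 6 h was −0.0041 with quantile normalization, −0.0090 without DMSO replicate 2 and 0.16 at most over arrays left out. Psmd1 at 72 h was −0.022 relative to the median of all genes. The cause was not tested. Probe signal was well above the filter in all members, with log2 levels of 8.23 to 14.5. The part of signal level in the size of the changes was not tested.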
